A study of Mus musculus with 8 samples.

Results

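Mitosis and spindle genes were followed in single liver leukocytes of mice given a beta-glucan. The group held 44 genes, taken by their symbols from the 32285 genes listed in each library, and all 44 symbols were found. The study sequenced 8 livers, each a separate library: 4 Control mice (replicates 1 to 4) and 4 mice given BG (BG replicates 5 to 8), which is the yeast beta-glucan odetiglucan (Imprime PGG), as a single intravenous dose of 1.2 mg on day 0. All 8 were female C57BL/6J mice aged 9 weeks with no tumor named in the labels, and livers were taken on day 2. CD45+ cells were isolated, and cells of the flow-through recovered by density gradient were added back so that more Kupffer cells, the resident macrophages of liver sinusoids, were captured. Endothelial cells, which are CD45-, were present in the data beside leukocytes although the labels name leukocytes.

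Mitosis divides the copied chromosomes between daughter cells. Cyclin B with Cdk1 drives entry, condensin and topoisomerase prepare the chromosomes, kinetochores and motor proteins attach them to a microtubule spindle, the anaphase-promoting complex (APC/C) triggers their separation, and a contractile ring splits the cell. Most of these genes are silent in resting cells and are switched on together in late S phase and G2, so their RNA marks dividing cells. In the adult liver most lymphocytes and Kupffer cells are at rest, and both can divide in place. The promoters of mitotic genes are known for the CHR element, bound by the DREAM and B-Myb-MuvB complexes, and for CCAAT boxes bound by NF-Y.

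Of 127557 deposited barcodes, 53654 cells with 200 to 5000 genes and at most 30% mitochondrial UMIs (unique molecular identifiers, each 1 captured RNA molecule) were kept. Control libraries held 6784 to 8378 kept cells at median depths of 2418.5 to 3040.0 UMIs, and BG libraries 4644 to 6814 at 2623.5 to 3993. BG replicate 5 stood apart, with 27873 barcodes, a median of 34 genes a barcode and 66.6% mitochondrial UMIs before the filter. Counts without it are given below. Any 2 libraries shared 6 to 31 kept barcodes, of 53654 in all. Cells entered a class by their lineage markers, and 12329 cells with markers of 2 lineages were left out. Those cells held 43.8% of the Control cells and 43.6% of the BG cells that carried several mitosis genes, so the values below describe the gated classes and not every dividing cell. Each library is 1 mouse, and UMIs were summed per mouse and class before any test.

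Promoter sequences were read first, since the CHR element and the CCAAT box are what the genes' regulation is best known for. RefSeq promoters (build GRCm38.p6, 250 bases before to 50 after the start) were at hand for 39 of the 44 genes. Aurkb, Ccna2, Smc4, Stmn1 and Tpx2 had no entry. A CHR element, searched as TTTGAA or TTCGAA on both strands, lay in 30 of the 39 promoters (76.9%), against 21.7% of 27025 genes. The CCAAT box, searched as CCAAT on both strands, lay in 31 (79.5%), against 41.1% of all genes. Both were found in 27 promoters (69.2%), against 8.61%, and 22 promoters (56.4%) held 2 or more CCAAT boxes, against 13.3%. S phase genes, the replication genes that precede mitosis, had the CHR element in 5 of 29 promoters (17.2%) and CCAAT in 16 (55.2%). Every one of the 5 mitotic kinase promoters and the 3 APC/C promoters held both motifs, whereas 1 of 3 tubulin promoters held a CHR element. The 250 bases before the start are shown 5′ to 3′ on the gene's own strand for a gene of each kind, with motif matches on either strand in capitals (TTCAAA is TTTGAA and ATTGG is CCAAT read on the other strand). Top2a (ENSMUSG00000020914, chr11:99024190-99024439, minus strand) held 4 CHR matches and 6 CCAAT matches, the nearest CHR match beginning 23 bases before the start. Mki67 (ENSMUSG00000031004, chr7:135716380-135716629, minus) held 2 and 3, Cdk1 (ENSMUSG00000019942, chr10:69352913-69353162, minus) 2 and 3, Cdc20 (ENSMUSG00000006398, chr4:118437344-118437593, minus) 1 and 2, and Kif11 (ENSMUSG00000012443, chr19:37376132-37376381, plus) 1 and 1. Tuba1b (ENSMUSG00000023004, chr15:98934391-98934640, minus), the alpha-tubulin gene that resting cells also use, held neither and is shown for contrast. A match describes the letters and is not a measured binding site.
Top2a: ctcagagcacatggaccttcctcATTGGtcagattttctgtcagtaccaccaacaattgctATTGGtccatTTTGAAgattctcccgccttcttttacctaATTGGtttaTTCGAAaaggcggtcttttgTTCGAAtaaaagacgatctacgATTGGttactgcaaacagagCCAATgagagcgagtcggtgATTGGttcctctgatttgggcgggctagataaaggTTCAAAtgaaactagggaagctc
Mki67: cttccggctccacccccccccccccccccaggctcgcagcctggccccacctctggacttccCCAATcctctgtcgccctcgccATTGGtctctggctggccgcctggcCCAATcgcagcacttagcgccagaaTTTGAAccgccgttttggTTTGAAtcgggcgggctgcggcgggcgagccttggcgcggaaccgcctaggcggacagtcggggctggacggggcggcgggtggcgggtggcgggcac
Cdk1: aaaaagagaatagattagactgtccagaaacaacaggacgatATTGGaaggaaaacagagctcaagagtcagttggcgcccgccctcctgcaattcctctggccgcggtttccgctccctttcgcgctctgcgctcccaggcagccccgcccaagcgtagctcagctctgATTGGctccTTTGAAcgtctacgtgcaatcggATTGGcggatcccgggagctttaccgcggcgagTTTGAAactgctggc
Cdc20: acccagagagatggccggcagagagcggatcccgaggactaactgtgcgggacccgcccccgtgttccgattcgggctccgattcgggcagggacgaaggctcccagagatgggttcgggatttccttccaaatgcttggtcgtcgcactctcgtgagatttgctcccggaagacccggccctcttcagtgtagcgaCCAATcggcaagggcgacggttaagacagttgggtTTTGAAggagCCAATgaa
Kif11: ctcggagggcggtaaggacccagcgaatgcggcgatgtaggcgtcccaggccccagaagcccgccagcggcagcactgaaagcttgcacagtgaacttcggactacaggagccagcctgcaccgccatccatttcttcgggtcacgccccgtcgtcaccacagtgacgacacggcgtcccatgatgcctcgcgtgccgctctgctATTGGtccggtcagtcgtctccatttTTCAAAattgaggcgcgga
Tuba1b: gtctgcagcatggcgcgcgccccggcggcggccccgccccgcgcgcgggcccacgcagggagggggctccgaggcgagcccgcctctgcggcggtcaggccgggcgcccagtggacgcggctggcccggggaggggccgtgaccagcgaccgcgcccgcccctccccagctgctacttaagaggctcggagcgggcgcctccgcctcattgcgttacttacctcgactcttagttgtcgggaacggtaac

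**Figure D1:**
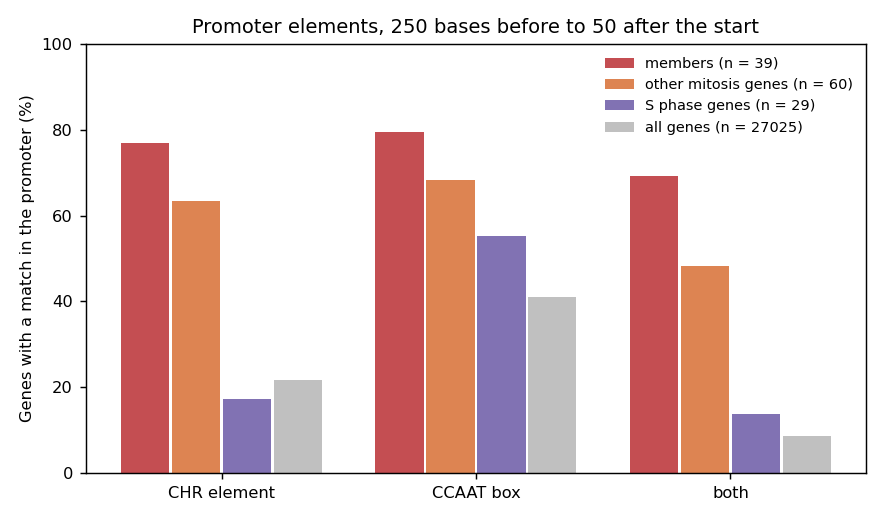
Bars give the percent of genes with a CHR element, a CCAAT box or both in the 300-base RefSeq promoter, for the 39 matched mitosis and spindle genes, 60 other mitosis genes, 29 S phase genes and all 27025 genes. Both elements together were in 69.2% of the mitosis and spindle genes and 8.61% of all genes.

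In Cxcr6+ Cd4 T cells, T cells with a UMI of Cd4 and of the liver-homing receptor gene Cxcr6, 13 mitosis and spindle genes were higher after BG. The class held 827 Control and 986 BG cells. It can include NKT cells, and had UMIs of Klrb1c in 49.2% and of Zbtb16 in 28.7% of its cells. Of the 43 genes tested, 13 rose and none fell, and all 43 had a positive log2 fold change (median 0.92, against −0.02 for all genes). Beside them, 2.66% of all 9011 genes tested were called higher. The 13 were Top2a, Hmgb2, Cdk1, Cks1b, Birc5, Cdca8, Nusap1, Tacc3, Prc1, Smc2, Tuba1b, Tubb5 and Stmn1, with log2 fold changes of 0.68 to 1.79, and 31 genes were at an unadjusted p under 0.05. A call here is an adjusted p under 0.05 in edgeR's quasi-likelihood test with a log2 fold change above 0.5. The test called 14 without BG replicate 5, but 7 without Control replicate 1 and 21 without BG replicate 6.

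The genes of G2 entry and DNA untangling came first in order. Hmgb2, a chromatin protein that bends DNA and is also made outside division, stood at 646, 885, 798 and 883 CPM (the gene's UMIs as a proportion of the library total, in the usual CPM unit after TMM scaling) in Control replicates 1 to 4 and at 1057, 994, 1587 and 1473 CPM in BG replicates 5 to 8. The groups did not overlap and the log2 fold change was 0.68 ± 0.13 (SE, adjusted p = 0.00240). Mki67, whose protein Ki-67 coats mitotic chromosomes, stood at 43.1, 117, 129.8 and 121 CPM in Control and 88.3, 113, 175 and 244 CPM in BG mice. BG replicates 5 and 6 fell within the Control range, and the log2 fold change of 0.74 ± 0.26 missed the threshold (adjusted p = 0.121). Top2a, the topoisomerase that untangles sister chromatids, rose by 1.11 ± 0.20 on the log2 scale (adjusted p = 0.00115). Of the cyclins, Cdk1 and its Cks subunits, Cdk1 itself had the largest log2 fold change of the 43 genes, 1.79 ± 0.30 (adjusted p = 0.000498). Cks1b, a small Cdk subunit that also serves in the removal of the inhibitor p27, was at 17.6, 33.2, 48.1 and 59.5 CPM in Control and 64.0, 60.4, 101 and 86.3 CPM in BG mice. All BG mice lay above all Control mice, by 1.12 ± 0.25 on the log2 scale (adjusted p = 0.00719), although DESeq2 did not call it. Its paralog Cks2 was at 43.1, 66.4, 56.1 and 65.9 CPM in Control and 77.3, 63.0, 103 and 94.9 CPM in BG mice. The lowest BG mouse lay within the Control range and the log2 fold change was 0.61 ± 0.18 (adjusted p = 0.0532). The mitotic cyclin genes Ccnb1 and Ccnb2 had log2 fold changes of 0.35 ± 0.37 and 0.28 ± 0.31, with adjusted p of 0.705 and 0.73.

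The 6 mitotic kinases had log2 fold changes of 0.76 to 1.26, and 3 of them reached an unadjusted p under 0.05 without passing edgeR's adjusted threshold. Bub1b, the spindle checkpoint kinase BubR1, stood at 3.66, 21.5, 22.4 and 12.9 CPM in Control and 22.1, 17.9, 20.9 and 26.1 CPM in BG mice. Control replicate 1 was the low mouse, Control replicates 2 and 3 lay among the BG mice, and the log2 fold change was 0.78 ± 0.35 (adjusted p = 0.248). Aurkb, the kinase of the chromosomal passenger complex, stood at 6.58, 5.86, 8.01 and 11.3 CPM in Control and 24.3, 9.28, 17.4 and 26.1 CPM in BG mice. Only BG replicate 6 reached into the Control range, with a log2 fold change of 1.26 ± 0.37 (adjusted p = 0.0527), and DESeq2 called neither kinase. At the kinetochore and passenger complex, Birc5 (survivin, the passenger subunit that brings Aurkb to centromeres) stood at 21.9, 54.7, 40.1 and 46.6 CPM in Control and 66.2, 56.4, 99.1 and 94.9 CPM in BG mice. The groups were apart and the gene rose by 1.10 ± 0.23 on the log2 scale (adjusted p = 0.00407). Cdca8 (borealin), of the same complex, rose by 1.29 ± 0.32 (adjusted p = 0.0182). Cenpf, a kinetochore protein of late G2, stood at 16.1, 43.0, 27.2 and 113 CPM in Control and 17.7, 47.1, 65.2 and 79.3 CPM in BG mice. Control replicate 4 was the highest of the 8 mice and BG replicate 5 among the lowest, so the groups overlapped fully (0.36 ± 0.37 on the log2 scale, adjusted p = 0.691). Cenpa, the histone that marks centromeres, had the smallest value of all, 0.06 ± 0.20 (adjusted p = 0.937).

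Among APC/C genes, Ube2c, the E2 enzyme of the complex, stood at 39.5, 60.6, 51.3 and 45.0 CPM in Control and 46.4, 61.7, 85.2 and 88.0 CPM in BG mice. BG replicate 5 lay within the Control range and the log2 fold change was 0.63 ± 0.19 (adjusted p = 0.0566). Cdca3, which promotes entry into mitosis, was at 6.58, 15.6, 9.62 and 16.1 CPM and 15.4, 19.9, 22.6 and 26.1 CPM. Its groups overlapped by BG replicate 5 alone, with a log2 fold change of 1.03 ± 0.30 (adjusted p = 0.0503). For the spindle motors and assembly factors, Nusap1, a microtubule bundler, stood at 13.2, 29.3, 28.9 and 28.9 CPM in Control and 44.1, 28.5, 61.7 and 74.1 CPM in BG mice. Control replicate 1 was low, BG replicate 6 matched the other Control mice, and the gene rose by 1.23 ± 0.28 on the log2 scale (adjusted p = 0.0102). Tpx2, which activates Aurora A on the spindle, stood at 12.4, 39.1, 19.2 and 51.5 CPM in Control and 28.7, 25.9, 32.2 and 63.1 CPM in BG mice. BG replicate 8 was the only mouse above the Control range (0.56 ± 0.33 on the log2 scale, adjusted p = 0.423). Tacc3, a spindle stabilizer, rose by 1.43 ± 0.31 (adjusted p = 0.00719).

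For cytokinesis, Prc1, which bundles the central spindle, stood at 16.1, 29.3, 12.8 and 24.1 CPM in Control and 33.1, 34.5, 41.7 and 51.5 CPM in BG mice. The groups were apart, and Prc1 rose by 1.10 ± 0.23 on the log2 scale (adjusted p = 0.00493). Racgap1, a subunit of centralspindlin, was at 16.8, 23.4, 14.4 and 14.5 CPM and 26.5, 17.9, 33.9 and 48.6 CPM. BG replicate 6 lay within the Control range (0.95 ± 0.29 on the log2 scale, adjusted p = 0.0631), and Kif23, the motor of the same complex, was at 0.07 ± 0.28 (adjusted p = 0.949). The condensin subunit gene Smc2 stood at 43.1, 50.8, 64.1 and 48.2 CPM in Control and 97.1, 89.5, 117 and 120.4 CPM in BG mice. All BG mice were above all Control mice, by 1.08 ± 0.16 on the log2 scale (adjusted p = 0.000133). Its partner Smc4 was at 122, 129, 139 and 158 CPM and 212, 141, 172 and 267 CPM. BG replicate 6 overlapped the Control mice (0.54 ± 0.16 on the log2 scale, adjusted p = 0.0566). Anln, an anillin of the contractile ring, had too few UMIs to be tested.

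The tubulin and stathmin genes, which supply and destabilize microtubules, gave 3 calls of 4. Stmn1, stathmin, stood at 62.2, 121, 144 and 133 CPM in Control and 329, 202, 452 and 347 CPM in BG mice. The lowest BG mouse was above the highest Control mouse, and Stmn1 rose by 1.58 ± 0.21 on the log2 scale (adjusted p = 4.46e-05). Tubb5, a beta-tubulin, stood at 254, 301, 301 and 306 CPM in Control and 492, 436, 664 and 644 CPM in BG mice. Its groups were likewise apart, by 0.96 ± 0.13 (adjusted p = 4.11e-05), and Tuba1b had the smallest adjusted p of the 43 genes (1.31 ± 0.15 on the log2 scale, adjusted p = 8.50e-06). Tubb4b, another beta-tubulin, was at 0.35 ± 0.13 (adjusted p = 0.137). Reads of tubulins, Hmgb2, Cks1b and Stmn1 may be shared with near-identical copies or pseudogenes, so their levels are less certain than those of the other genes.

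**Figure D2:**
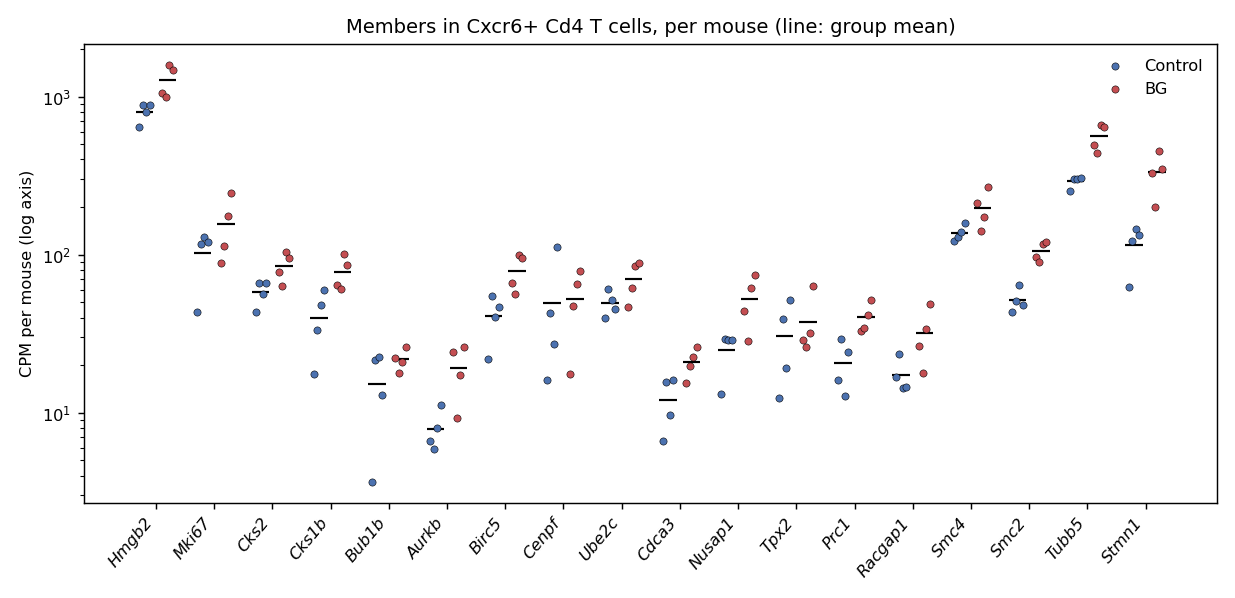
Each dot is the TMM-scaled CPM of 1 mouse in Cxcr6+ Cd4 T cells on a log axis, Control in blue and BG in red, with a line at each group mean, for the 2 genes of each role with the most UMIs. Stmn1, Tubb5 and Smc2 show separate groups, whereas the dots of Cenpf and Tpx2 mix.

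Cxcr6- Cd4 T cells, the Cd4 T cells without a Cxcr6 UMI, were tested in the same way. None of the 34 genes tested passed edgeR's test there, 3 were at an unadjusted p under 0.05 (1 of them higher), and DESeq2 called 0. In this class 0.702% of all 7122 genes were called higher. The median log2 fold change of the 34 was −0.05, and 14 were positive. Top2a stood at 137, 81.6, 74.2 and 141 CPM in Control and 192, 95.3, 97.7 and 129 CPM in BG mice. Mki67 stood at 183, 32.1, 76.6 and 204 CPM and 105, 50.2, 112 and 224 CPM. Both overlapped, although BG replicate 5 was the highest of all mice for Top2a and BG replicate 8 for Mki67, at 0.17 ± 0.20 (adjusted p = 0.908) and -0.06 ± 0.31 (adjusted p = 0.979) on the log2 scale. Stmn1 stood at 186, 102, 169.8 and 226 CPM in Control and 271, 93.6, 189 and 246 CPM in BG mice, again overlapping (0.18 ± 0.21, adjusted p = 0.908). Without BG replicate 5 the count stayed at 0.

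The difference between the 2 Cd4 classes was tested directly, as the BG log2 fold change in Cxcr6+ minus that in Cxcr6- cells of the same mice. It was positive for all 44 genes, with a median of 0.90, and 8 passed, against 0.351% of all 9697 genes called in that direction. Stmn1 had a difference of 1.46 ± 0.22 (SE, adjusted p = 0.000167) and Birc5 one of 1.88 ± 0.34 (adjusted p = 0.00194). Tubb5 differed by 0.73, Hmgb2 by 0.64, Tuba1b by 0.76, Smc2 by 0.95, Smc4 by 0.70 and Cdca8 by 1.46, with adjusted p of 0.000802 to 0.0477. The number fell to 2 without Control replicate 1, to 3 without BG replicate 7 and to 5 without BG replicate 8. It was 13 without Control replicate 2 and 9 without BG replicate 5. Without Control replicate 1 the median difference was 0.57, and 37 of the 44 were positive. The Cxcr6- cells were sequenced less deeply, at pooled medians of 2665 UMIs in Control and 3013 in BG mice against 3183 and 4132.5, and the absence of a Cxcr6 UMI depends on depth. Its part in the result was not tested.

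In Cd8 T cells 7 of 40 genes tested rose, where 1.11% of all 9149 genes were called higher, and the median log2 fold change was 0.72 with 36 of 40 positive. Top2a stood at 37.4, 29.1, 48.2 and 57.9 CPM in Control and 99.3, 95.6, 92.7 and 84.1 CPM in BG mice, and Mki67 at 37.4, 42.7, 55.1 and 63.9 CPM and 106, 82.8, 83.9 and 120.1 CPM. The groups did not overlap for either, and the log2 fold changes were 1.11 ± 0.16 (adjusted p = 0.000306) and 1.01 ± 0.16 (adjusted p = 0.000996). Stmn1 stood at 61.9, 82.4, 55.8 and 129.7 CPM in Control and 207, 142, 217 and 205 CPM in BG mice, a rise of 1.26 ± 0.19 (adjusted p = 0.000439). Birc5 stood at 24.5, 16.5, 6.12 and 36.9 CPM and 65.1, 44.4, 49.8 and 38.0 CPM, a rise of 1.23 ± 0.28 (adjusted p = 0.0230). Both were apart between groups. The other 3 called were Cks1b, Smc2 and Tuba1b, while Tubb5, with an adjusted p of 0.015, stayed below the fold limit. Without BG replicate 5 the count was 6.

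Cd4- Cd8- T cells, which can include NKT and gamma delta T cells and were the largest class with 15816 cells, gave 20 calls of 44 genes tested. Here 2.57% of all 11919 genes were called higher. Every one of the 44 was positive, with a median log2 fold change of 1.26, and 41 were at an unadjusted p under 0.05. Top2a stood at 12.6, 37.6, 36.0 and 29.9 CPM in Control and 55.0, 48.7, 82.8 and 124 CPM in BG mice, and Mki67 at 14.2, 42.4, 38.1 and 34.7 CPM and 58.0, 57.8, 80.6 and 149.7 CPM. Neither overlapped, and both rose by 1.46 on the log2 scale (SE 0.30 and 0.31, adjusted p = 0.013 and 0.0152). Tacc3 stood at 1.81, 6.98, 3.88 and 4.45 CPM in Control and 10.0, 10.6, 16.8 and 25.8 CPM in BG mice. It had the largest log2 fold change of the 44 in this class, 1.98 ± 0.34 (adjusted p = 0.00380). Stmn1 stood at 15.8, 86.6, 71.6 and 52.7 CPM in Control and 136, 117, 209 and 234 CPM in BG mice (1.64 ± 0.35, adjusted p = 0.0140). Kif11, the kinesin that pushes spindle poles apart, stood at 3.02, 7.71, 8.06 and 5.38 CPM and 15.7, 9.45, 14.5 and 31.6 CPM (1.61 ± 0.35, adjusted p = 0.0151). Control replicate 1 was the lowest mouse and BG replicate 8 the highest for all 5, and the groups did not overlap. Leaving out 1 mouse gave 11 to 30 calls, with 11 without Control replicate 1 and 11 without BG replicate 8, 12 without Control replicate 4, 13 without Control replicate 3 or BG replicate 7, 30 without Control replicate 2, and 17 without BG replicate 5.

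In NK and ILC1 cells 27 of 31 genes tested rose, where 2.17% of all 7408 genes were called higher. The minimum of 40 UMIs was set on the sum over all mice, so a gene could pass it through the BG mice alone, and the 27 of 31 is no share of the whole group. With a minimum of 10 UMIs all 44 genes were tested and 30 rose. A filter that used the groups, and needed UMIs in as many mice as a group holds, gave 10 of 13. The BG mice alone could meet either of these filters too. The other 13 genes, all 6 mitotic kinases among them, had too few UMIs to be tested. Stmn1 stood at 16.4, 24.6, 102 and 39.8 CPM in Control and 351, 125, 521 and 284 CPM in BG mice. The groups were apart, and the log2 fold change was 2.85 ± 0.32 (adjusted p = 7.14e-07). Mki67 stood at 7.47, 0, 40.8 and 24.8 CPM in Control and 113, 17.1, 192 and 158 CPM in BG mice, and Top2a at 10.5, 24.6, 63.5 and 22.4 CPM and 120.0, 46.5, 272 and 92.8 CPM. BG replicate 6 lay within the Control range for both, which had log2 fold changes of 2.75 ± 0.43 (adjusted p = 0.000109) and 2.23 ± 0.38 (adjusted p = 0.000335). Birc5 stood at 1.49, 0, 20.4 and 4.97 CPM in Control and 36.9, 14.7, 131 and 72.2 CPM in BG mice (3.29 ± 0.53, adjusted p = 0.000174), and Ccnb2, cyclin B2, at 0, 3.51, 9.07 and 0 CPM and 16.2, 0, 40.6 and 38.3 CPM (3.10 ± 0.70, adjusted p = 0.00809). For these as well BG replicate 6 lay within the Control range. Ccna2, cyclin A2, had 1 UMI in all Control mice and 57 in all BG mice, a pooled ratio of 47.2 with a 95% counting interval of 8.14 to 1896. Pooled ratios of this kind were added after the counts were seen and cover counting error only.

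The number of genes called in NK and ILC1 cells moved with the mice and the tool. It was 26 without BG replicate 5 and 12 without BG replicate 7 or Control replicate 1, and DESeq2 called 5 of 31. In NK and ILC1 cells without any T cell receptor or CD3 UMI, 4 of 12 genes tested were called. Summed over 6 T cell genes (Cd3d, Cd3e, Cd3g, Trac, Trbc1 and Trbc2), CPM was 554.8 to 657 in Control mice. It was 401 to 466 in BG mice, and 4087 to 5042 in all T cells. A cell of this class could hold no more than 1 of these 6 genes, so a low sum was partly set in advance. The part of T cell RNA in the result was not tested. The response of Cxcr6+ Cd4 T cells minus that of NK and ILC1 cells was lower for 2 of 44 genes, where 0.0205% of all 9778 genes were. These were Mki67, −1.92 ± 0.37, and Stmn1, −1.20 ± 0.24, both with an adjusted p of 0.0116. The number was 0 without BG replicate 5, without BG replicate 7 or without Control replicate 1, 2 or 4. It was 4 without BG replicate 8, 7 without Control replicate 3 and 8 without BG replicate 6. Of the 44 differences with all mice 2 were positive, and the median was −1.47. In edgeR's interaction test 24 were at an unadjusted p under 0.05.

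Kupffer cells were few, 316 in all, and Control replicate 1 with 8 cells did not enter, so 3 Control mice were set against 4 BG mice. Of 10 genes with enough UMIs 6 rose (Top2a, Mki67, Hmgb2, Stmn1, Tuba1b and Tubb5), where 0.741% of all 2969 genes were called higher. As in NK cells, a gene could reach 40 UMIs through the BG mice alone, and with a minimum of 10 UMIs 9 of 32 rose. Stmn1 stood at 90.5, 14.7 and 118 CPM in Control replicates 2 to 4 and at 185, 341, 444 and 253 CPM in BG mice. The groups were apart (2.31 ± 0.44 on the log2 scale, adjusted p = 0.00579). Mki67 stood at 0, 14.7 and 35.3 CPM in Control and 26.5, 144, 144 and 153 CPM in BG mice (2.64 ± 0.61, adjusted p = 0.0230), with BG replicate 5 inside the Control range. Top2a had 2 UMIs in the Control mice and 77 in the BG mice, a pooled ratio of 23.3 with a counting interval of 6.23 to 195.8. The count was 6 without BG replicate 5, 0 without Control replicate 3, 3 without Control replicate 4 and 1 without BG replicate 7. It was 0 of 6 in cells with at most 2500 genes and 2 of 6 in cells without a T cell receptor or CD3 UMI.

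In B cells, dendritic cells, monocytes and endothelial cells at most 1 gene was called. In B cells 1 of 34 genes rose (1.17% of all 9795 genes were called higher), although 32 were positive and 18 were at an unadjusted p under 0.05. That gene, Hmgb2, stood at 232, 261, 239 and 264 CPM in Control and 359.9, 259.6, 528 and 329.6 CPM in BG mice (0.56 ± 0.14, adjusted p = 0.0433), with BG replicate 7 the highest and BG replicate 6 inside the Control range, and the count was 0 without BG replicate 5, 7 or 8 or Control replicate 1, 3 or 4, 2 without Control replicate 2 and 6 without BG replicate 6. BG replicate 7 was also highest for Top2a, at 32.7, 15.1, 109 and 26.8 CPM in BG against 17.4, 15.4, 27.6 and 28.1 CPM in Control mice (0.91 ± 0.36, adjusted p = 0.386). In conventional DCs 1 of 36 genes rose, where 0.171% of all 7001 genes were called higher. Stmn1 stood there at 132, 217, 207 and 173 CPM in Control and 316, 326, 369.6 and 282 CPM in BG mice, apart between groups (0.83 ± 0.15, adjusted p = 0.00843). It was called in each fit that left out 1 mouse except that without BG replicate 7, and 2 genes were called without Control replicate 4. Top2a and Mki67 were high in conventional DCs of both groups. Top2a ranged from 58.5 to 149 CPM in Control and from 141 to 208 CPM in BG mice (0.54 ± 0.21, adjusted p = 0.559), and Mki67 from 66.0 to 179 and from 132 to 241 CPM (0.49 ± 0.23, adjusted p = 0.721). In plasmacytoid DCs none of 14 genes passed edgeR's test, 2 were at an unadjusted p under 0.05 and DESeq2 called 0, while 0.497% of all 7646 genes were called higher. In endothelial cells none of 22 passed, 2 were at an unadjusted p under 0.05 (1 of them higher) and DESeq2 called 0, while 1.06% of all 10628 genes were called higher. Monocytes and bone marrow derived macrophages (BMDMs) had 1 call of 7 genes (1.41% of all 4625 genes were called higher). Cks2 stood there at 88.5, 80.6, 76.7 and 67.5 CPM in Control and 194, 156, 137 and 142 CPM in BG mice (0.92 ± 0.23, adjusted p = 0.0258), a call not made by DESeq2 or without BG replicate 5 or 6 or Control replicate 2, 3 or 4.

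Across the 11 classes fitted, no gene was called lower by edgeR or DESeq2, and 2 in Cxcr6- Cd4 T cells and 1 in endothelial cells were lower at an unadjusted p under 0.05. Stmn1 was called higher in 6 classes, Top2a and Tuba1b in 5, and Mki67, Hmgb2, Cks1b, Birc5, Smc2 and Tubb5 in 4. In no class were 13 genes called, namely Ccnb1, Plk1, Aurka, Bub1, Ttk, Cenpa, Nuf2, Kif2c, Ckap2, Ckap2l, Ect2, Anln and Tubb4b. Of these Tubb4b was tested in all 11 classes and Cenpa in 9, while Anln was tested in 1 and Ttk, Nuf2 and Ect2 in 2.

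**Figure D3:**
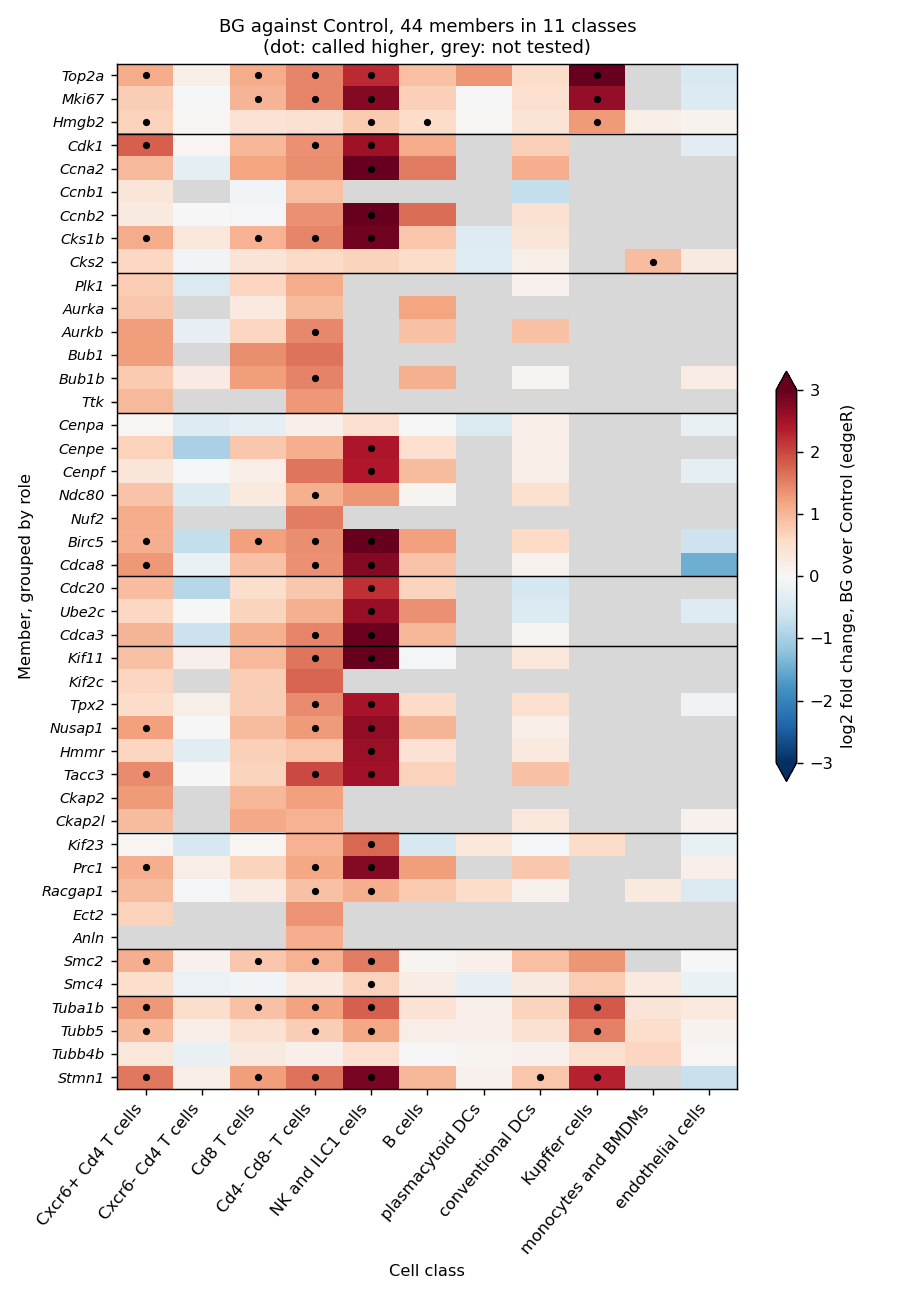
Colour gives the log2 fold change of BG over Control for each of the 44 genes (rows, by role) in each of 11 cell classes (columns), a dot marks a gene called higher and grey a gene with too few UMIs to be tested. Dots gather in Cd4- Cd8- T cells (20), NK and ILC1 cells (27) and Cxcr6+ Cd4 T cells (13), and Cxcr6- Cd4 T cells hold none.

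The same genes were then read cell by cell. Of the 44 genes 35 are used mainly in division (called strict here). The other 9 (Hmgb2, Cks1b, Cks2, Smc2, Smc4, Tuba1b, Tubb5, Tubb4b and Stmn1) are also made by resting cells (called broad). A cell with UMIs of 3 or more strict genes was counted as having several. Strict UMIs were not confined to such cells. These cells held 44.4% of the strict UMIs in Control B cells and 7.45% in Control monocytes and BMDMs. In Control Cxcr6+ Cd4 T cells they held 90.6%. The shares are descriptions with no test, given unthinned and after each cell was thinned to 1500 UMIs so that depth was equal. In Cxcr6+ Cd4 T cells 2.45, 4.58, 4.14 and 5.03% of cells had several in Control replicates 1 to 4, and 10.9, 10.1, 20.4 and 16.9% in BG replicates 5 to 8. Every BG mouse lay above every Control mouse, with means of 4.05% ± 1.12 and 14.6% ± 4.91 (SD, n = 4 mice each). After thinning the means were 2.51% ± 0.653 and 8.47% ± 2.62 and the groups were still apart, with 12 Control and 9 BG cells left out as too shallow. The Cxcr6- Cd4 T cells had shares of 4.49, 2.17, 4.49 and 4.76% in Control and 6.11, 3.05, 6.11 and 10.6% in BG mice. These overlapped, also after thinning (3.44% ± 1.29 and 4.80% ± 2.38).

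In the other T cells the share was also higher in BG mice. Cd8 T cells had 3.44% ± 1.05 in Control and 7.92% ± 1.65 in BG mice and Cd4- Cd8- T cells 1.42% ± 0.650 and 5.66% ± 2.30, both without overlap and both still apart after thinning. When these were split by Cxcr6, the Cxcr6+ and Cxcr6- Cd8 T cells had 4.72% against 12.5% and 3.06% against 6.35%, and the Cxcr6+ and Cxcr6- Cd4- Cd8- T cells 1.63% against 6.23% and 1.15% against 4.55%, all without overlap before thinning. After thinning only the Cxcr6- Cd4- Cd8- T cells of these 4 kept separate groups. The difference between Cxcr6+ and Cxcr6- cells was not tested for these shares. Foxp3+ T cells, regulatory T cells that were too few to be fitted, had several in 5 of 35 Control and 18 of 46 BG cells. NK and ILC1 cells had 0, 0.694, 2.37 and 1.09% in Control and 5.53, 2.24, 13.9 and 6.58% in BG mice. BG replicate 6 fell within the Control range and BG replicate 7 was the highest, before and after thinning (0.460% ± 0.580 and 4.54% ± 3.66 after it).

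Conventional DCs had the highest Control share of the fitted classes, 15.6% ± 3.08, and had 24.4% ± 3.18 in BG mice, without overlap (10.1% ± 1.82 and 16.8% ± 3.19 after thinning). Their cells were the deepest of the fitted classes, at pooled medians of 6053 UMIs in Control and 6293 in BG mice. Kupffer cells with several numbered 1 of 135 in Control mice (0.741%, 95% Clopper-Pearson interval 0.0188 to 4.06%) and 33 of 181 in BG mice (18.2%, 12.9 to 24.6%). Of the 33, 22 came from BG replicate 7, 4 each from BG replicates 6 and 8 and 3 from BG replicate 5, which is 14.8%, 30.6%, 8.70% and 8.33% of the Kupffer cells in BG replicates 6, 7, 8 and 5. The intervals cover counting error only. Clec4f, Cd5l and Vsig4 were among the markers that placed cells in this class, so their detection was partly set in advance. They were found in 91.2%, 97.1% and 91.2% of these 34 cells, against 95.4%, 97.5% and 83.7% of the other 282. UMIs of the 6 T cell genes were in 27.3% of the 33 BG cells, 24 having none, and in 14.2% of the other 148 BG Kupffer cells. Median depths were 3049 and 2174.5 UMIs, and the summed CPM of the T cell genes was 83.1 and 89.5. The 4 cells of BG replicate 8 had a median of 14565 UMIs and the 22 of BG replicate 7 one of 2292. By mouse the summed CPM in Kupffer cells was at most 103 in Control and 44.7 to 124 in BG mice. The part of T cell RNA in the Kupffer cell result was not tested further. Among the remaining classes, B cells had 0.659% ± 0.0271 and 1.63% ± 1.12, with every BG mouse above every Control mouse and BG replicate 7 highest at 3.31%, though the groups overlapped after thinning. Endothelial cells had 0.754% ± 0.492 and 0.629% ± 0.291, with overlap. The B cells with several held a median of 3.5 strict genes in Control and 6 in BG mice, and the endothelial cells 12 and 5.5. Monocytes and BMDMs had 0, 1.64, 0 and 0% in Control and 3.03, 0, 1.41 and 10.0% in BG mice, BG replicate 8 being the highest and BG replicate 6 at 0. As a class that seldom divides once mature, plasmacytoid DCs had several in 2 of 638 Control and 5 of 477 BG cells, at medians of 3774 and 4346 UMIs. Neutrophils, which do not divide, had several in 2 of 91 Control and 1 of 74 BG cells, but these 3 cells held 22, 29 and 26 strict genes at 6883, 12755 and 10313 UMIs, against medians of 1338 and 1352 UMIs in the other neutrophils of the Control and BG mice, and so gave no level of free RNA.

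**Figure D4:**
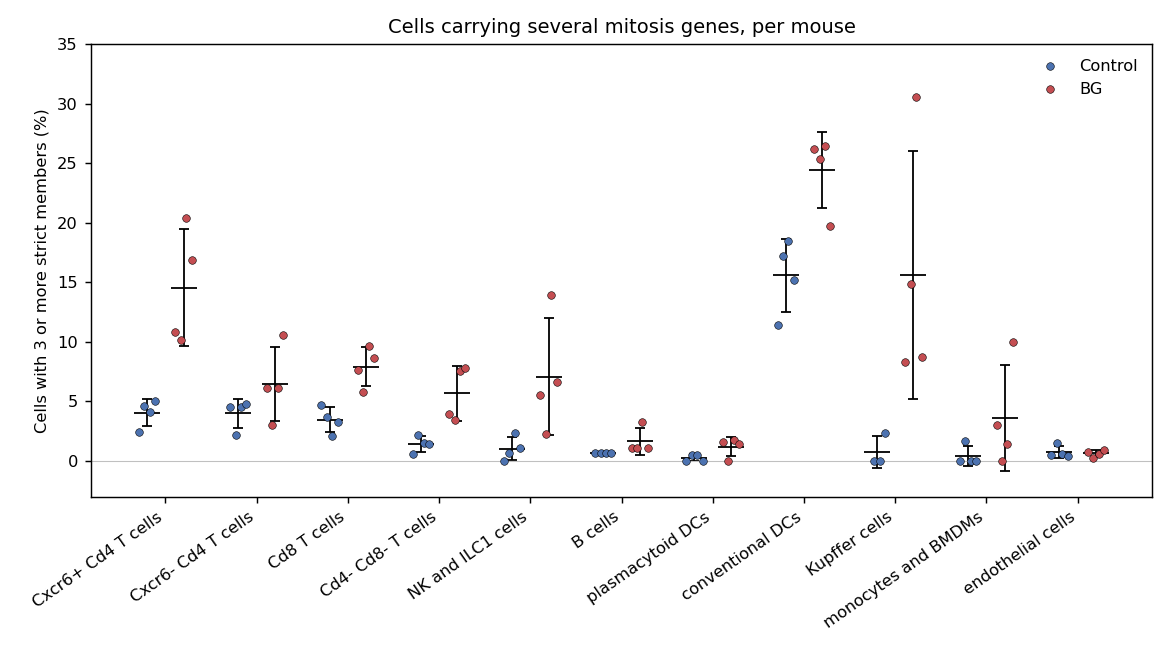
Each dot is the percent of a mouse's cells in a class with UMIs of 3 or more strict genes, Control in blue and BG in red, with bars for the mean ± SD over mice. Cxcr6+ Cd4 T cells (4.05% to 14.6%), conventional DCs and Kupffer cells show separate groups, and Cxcr6- Cd4 T cells overlap.

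Cells with several in the Cxcr6+ Cd4 class were deeper than the others. The 31 Control cells had medians of 8354 UMIs and 14 strict genes, and the 146 BG cells medians of 7880.5 UMIs and 11 strict genes, against 3122 and 3814 UMIs in the other cells. They carried 90.6% of all strict UMIs in Control and 94.6% in BG mice, and 44.3% and 69.9% of the broad ones. Since the cells were picked by their strict genes, a high share of strict UMIs was built into that choice. Detection of single genes within them was read from the pooled cells. Ccnb1 was found in 45.2% of the Control and 20.5% of the BG cells, Ccnb2 in 48.4% and 34.2%, and Cenpa in 58.1% and 43.2%. Stmn1 was found in 83.9% and 95.9%, Cdk1 in 41.9% and 54.1%, and Top2a in 77.4% and 87.0%. These differences in detection were not tested across mice.

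Leaving those cells out showed what remained in the others. The broad genes summed to 1084, 966, 923 and 968 CPM (unscaled) in the remaining Cxcr6+ Cd4 T cells of Control mice and to 1181, 1169, 1554 and 1238 CPM in BG mice. The groups stayed apart, at means of 985 ± 68.7 and 1286 ± 182 CPM (SD), where all cells had given 1725 ± 189.8 and 3057 ± 616. The strict genes summed to 751 ± 226 CPM in Control and 1197 ± 409 CPM in BG mice over all cells, and to 62.6 ± 21.2 and 90.3 ± 21.7 CPM without cells with several. Both strict sums overlapped between groups, and their fall without these cells follows in part from picking the cells by strict genes. Stmn1 stood at 8.66, 10.9, 8.73 and 5.42 CPM in Control and 33.7, 20.1, 93.4 and 49.7 CPM in BG mice without them. It was still 5.84 times as high in the means and apart between groups, as were Smc2 (20.3 ± 4.42 and 44.5 ± 11.2 CPM), Tuba1b (75.7 ± 12.8 and 146 ± 51.3 CPM) and Tubb5 (209 ± 16.1 and 279 ± 42.3 CPM). Hmgb2 (449 ± 28.8 and 531 ± 68.6 CPM), Smc4 (96.6 ± 11.6 and 104 ± 25.4 CPM), Cks2 and Tubb4b overlapped. The share of all genes that stayed apart in the remaining cells was not computed. Cells with S phase genes were among those remaining. Without thinning, Cxcr6+ Cd4 T cells with 3 or more S phase but fewer than 3 strict genes made up 15.6% ± 5.30 in Control mice. In BG mice they made up 38.6% ± 10.7. In NK and ILC1 cells the broad sum without cells with several was 1103 ± 85.2 CPM in Control and 1189 ± 57.7 CPM in BG mice, which overlapped, against 1229 ± 122 and 2486 ± 864 in all cells.

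S phase genes act before mitosis. All 34 of the list were tested and 28 rose in Cxcr6+ Cd4 T cells, among them Cdc6 (2.70 on the log2 scale), which loads the replicative helicase, Pole (2.51), a DNA polymerase, and E2f1 (2.13), the G1/S transcription factor. Cxcr6- Cd4 T cells had 5 of 27 higher, led by the helicase gene Mcm6 (1.13), the DNA ligase gene Lig1 (1.09) and Mcm2 (0.95). Counts in Cd8 T cells, Cd4- Cd8- T cells, NK and ILC1 cells and Kupffer cells were 12 of 33, 33 of 34, 18 of 27 and 4 of 9. In the other 5 classes none passed edgeR's test, 0 to 10 were at an unadjusted p under 0.05, and the list's median log2 fold change was 0.06 to 0.60. The list of 72 other mitosis genes shares no gene with the 44, but was read in the same cells and mice. Like the S phase list, it was chosen with earlier results of these data known. The shares of all genes called higher in each class are given above. Of the 72, 17 of 60 tested were higher in Cxcr6+ Cd4 T cells, with Cdca5 (3.05), Mybl2 (2.33) and Kntc1 (1.99) at the top. The list had 28 of 69 in Cd4- Cd8- T cells and 7 of 22 in NK and ILC1 cells. Its counts in Cd8 T cells and B cells were 3 of 46 and 1 of 36 (Spc24). Of 28 in Cxcr6- Cd4 T cells none passed edgeR's test, 2 were at an unadjusted p under 0.05 (both lower), and their median was −0.06.

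Cells were therefore sorted by whether they held 3 or more S phase genes, a measure chosen after the lists had been seen, with all cells thinned to 1500 UMIs. Of the Cxcr6+ Cd4 T cells 5.33% ± 0.764 of Control and 29.2% ± 9.52 of BG cells did, and in Cxcr6- Cd4 T cells 5.24% ± 0.713 and 15.7% ± 6.40. Neither class overlapped between groups. Without thinning the shares were 19.5% ± 4.36 and 53.0% ± 14.1 in Cxcr6+ cells, while for Cxcr6- cells the Control mice spanned 10.1 to 19.7% and the BG mice 17.6 to 38.2%, so BG replicate 5 lay below Control replicate 1. The thinned shares in NK and ILC1 cells were 5.47% ± 1.10 and 18.1% ± 6.99, in Kupffer cells 2.86% ± 2.58 and 28.5% ± 11.9 (n = 3 and 4 mice), in Cd8 T cells 5.60% ± 1.49 and 13.9% ± 5.22 and in Cd4- Cd8- T cells 4.53% ± 0.273 and 17.1% ± 5.74, all without overlap. In Cd8 T cells the groups overlapped before thinning, with Control replicate 1 at 27.5% and BG replicate 5 at 23.9%. Thinning left out 49 of 135 Control and 67 of 181 BG Kupffer cells, and 107 of 772 and 68 of 741 NK and ILC1 cells, as too shallow. In most of these cells UMIs of fewer than 3 strict genes were detected at 1500 UMIs. Among Cxcr6+ Cd4 T cells, S phase genes with fewer than 3 strict genes were in 3.71% ± 0.934 of Control and 22.3% ± 8.88 of BG cells, and 3 or more of each were in 1.62% ± 0.700 and 6.86% ± 2.50. Cxcr6- Cd4 T cells with S phase genes only went from 3.19% ± 0.747 to 12.1% ± 6.13 without overlap, while those with both, at 2.05% ± 0.886 and 3.59% ± 1.15, overlapped. Shares with both were also apart in Cd8 T cells (1.09% ± 0.182 and 2.13% ± 0.708) and Cd4- Cd8- T cells (0.733% ± 0.430 and 2.59% ± 1.27). The same held in Kupffer cells (0% in each Control mouse and 8.16% ± 1.86 in BG mice). In NK and ILC1 cells they overlapped (0.310% ± 0.358 and 3.30% ± 3.41). Without thinning the NK and ILC1 groups were apart for both kinds together (0.509% ± 0.590 and 6.76% ± 5.02). For S phase genes only, the groups overlapped without thinning in Cxcr6- Cd4 T cells, Cd8 T cells and Kupffer cells.

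**Figure D5:**
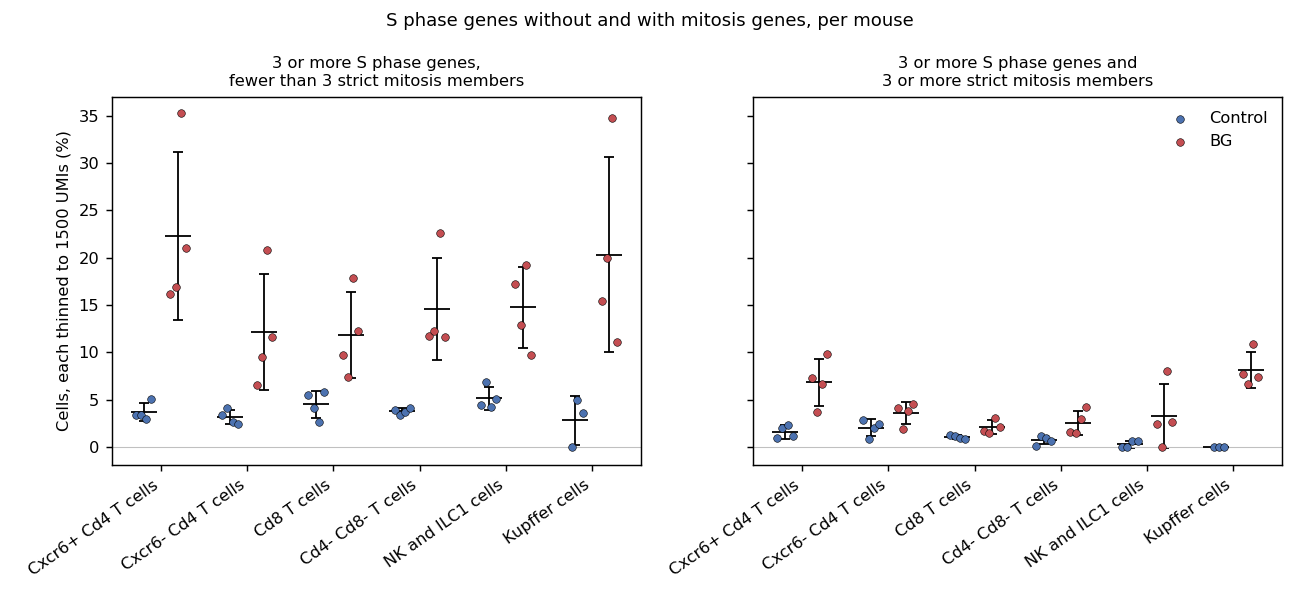
Each dot is the percent of a mouse's cells, thinned to 1500 UMIs, with 3 or more S phase genes only or with 3 or more S phase and 3 or more strict mitosis genes, Control in blue and BG in red, with bars for the mean ± SD. S phase genes alone separate the groups in every class drawn. Both kinds together separate them in Cxcr6+ Cd4, Cd8 and Cd4- Cd8- T cells and in Kupffer cells. In Cxcr6- Cd4 T cells and in NK and ILC1 cells both kinds together overlap.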

How the data were processed

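RNA of single liver cells was captured with the 10x Genomics 3′ v3.1 kit and sequenced on a NovaSeq. The authors deposited unnormalized UMI counts per gene and barcode, made with Cell Ranger 6.1.2 (file headers) on mm10 with intron reads included. The annotation release is not given in the sources used here. Dead cells had been removed before capture, CD45+ cells were isolated, and buffy coat cells of the flow-through were added back.

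Cells with 200 to 5000 genes and at most 30% mitochondrial UMIs were kept. A cell entered a lineage with UMIs of at least 2 of its markers, and was left out where the marker count of a second lineage came within a ratio of 3. NK markers did not bar a cell from the T lineage, but NK and ILC1 cells could hold UMIs of no more than 1 T cell marker. No doublet caller was run, and the 12329 cells with markers of 2 lineages were left out. UMI counts were summed per mouse and class, with at least 10 cells a mouse and 3 mice a group. Control replicate 1 (8 Kupffer cells) did not enter that class, and Foxp3+ T cells could not be fitted.

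Genes with at least 40 UMIs over all mice were tested with edgeR's quasi-likelihood test (edgeR 4.0.16, limma 3.58.1, R 4.3.3) after TMM scaling. Benjamini-Hochberg adjustment ran over all genes tested in a class. Differences between classes were the interaction term of a joint fit on the same mice. Calls needed an adjusted p under 0.05 and a log2 fold change over 0.5 in size. Scripts were tested on simulated data. Shares and motif counts used Python 3.11.15 and carry no test. Intervals are exact at 95% and cover counting error only. Depth limited rare classes most, since a gene needed 40 UMIs to be tested.

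The 44 genes and the lists of 34 S phase and 72 other mitosis genes were chosen with earlier results of these data known. In Cxcr6+ Cd4 T cells the 2 genes of each role with the most UMIs were described by mouse. Elsewhere the 3 called genes with the largest log2 fold change were, beside Mki67, Top2a and Stmn1. Other genes were named after their values were seen. Alternatives were DESeq2 1.42.0, library size scaling, other filters on low counts, at most 2500 genes a cell, cells without T cell receptor UMIs, thinning, other numbers of genes for several, and leaving out each mouse.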

Additional observations from a re-analysis of the deposited data

Results flagged for a closer look

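In 12 of 124 groups of 4 mice, 1 mouse stood apart from the other 3. A chance rate of about 1 in 20 would need independent groups. Here groups share mice and some hold few UMIs, so the 12 cannot be set against that rate. The value given is the gap to the nearest mouse as a share of the group's whole range. In Cxcr6+ Cd4 T cells the lowest Control mouse stood apart for Mki67 (0.855), Nusap1 (0.971) and Tubb5 (0.909), which was Control replicate 1 each time, and the highest BG mouse for Tpx2 (0.830). In Cd8 T cells the lowest BG mouse stood apart for Stmn1 (0.839), and in Kupffer cells for Mki67 (0.923). Ccna2 in NK and ILC1 cells had its only Control UMI in 1 mouse (1). For the share of cells with several strict genes, 1 mouse stood apart among Control mice in Cxcr6- Cd4 T cells (lowest, 0.894), monocytes and BMDMs (highest, 1) and endothelial cells (highest, 0.867), and among BG mice in B cells (highest, 0.980) and conventional DCs (lowest, 0.831).

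The BG response differed between classes in 10 of edgeR's interaction tests, for 9 genes, since Stmn1 differed in both pairs of classes. Between Cxcr6+ and Cxcr6- Cd4 T cells the differences of log2 fold changes were 1.88 for Birc5, 1.46 for Stmn1, 1.46 for Cdca8, 0.95 for Smc2, 0.76 for Tuba1b, 0.73 for Tubb5, 0.70 for Smc4 and 0.64 for Hmgb2. Between Cxcr6+ Cd4 T cells and NK and ILC1 cells they were −1.20 for Stmn1 and −1.92 for Mki67.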

How the results depend on the processing

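Counts of genes called that moved by over 1.5 times are given by setting. In cells with at most 2500 genes the counts were 1 in Cxcr6- Cd4 T cells, 3 in Cd8 T cells, 6 in Cd4- Cd8- T cells, 6 in NK and ILC1 cells, 4 in B cells, 0 in conventional DCs and 0 in Kupffer cells. DESeq2 called 5 in NK and ILC1 cells, 2 in conventional DCs and 0 in monocytes and BMDMs. Filtering by group called 10 in NK and ILC1 cells. Cells without T cell receptor UMIs gave 4 in NK and ILC1 cells, 2 in B cells, 0 in conventional DCs and 2 in Kupffer cells. DESeq2 used the same cells and genes, whereas the other settings changed which cells or genes entered, and the cause was not tested. Leaving out 1 mouse gave 7 to 21 in Cxcr6+ Cd4 T cells, 0 to 1 in Cxcr6- Cd4 T cells, 6 to 10 in Cd8 T cells, 11 to 30 in Cd4- Cd8- T cells, 12 to 27 in NK and ILC1 cells, 0 to 6 in B cells, 0 to 2 in conventional DCs, 0 to 6 in Kupffer cells and 0 to 1 in monocytes and BMDMs. The differences between classes then gave 2 to 13 against Cxcr6- Cd4 T cells and 0 to 8 against NK and ILC1 cells.

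The BG minus Control share of Cxcr6+ Cd4 T cells with several, 10.5 percentage points, was 5.96 after thinning and 5.96 with at most 2500 genes, and 8.57 to 12.0 without 1 mouse. The same difference in endothelial cells turned to 0.472 with 2 or more genes and ranged from −0.233 to 0.119 without 1 mouse. Of the log2 fold changes of named genes under alternatives 587 kept direction and call, 56 lost the call, 21 gained it and 16 reversed, all 16 for genes not called. With at most 2500 genes Mki67 in Cxcr6- Cd4 T cells was 0.53 and Stmn1 in plasmacytoid DCs −0.43, and with library size scaling Mki67 in plasmacytoid DCs was −0.024. Without 1 mouse Cenpf in Cxcr6+ Cd4 T cells ranged from −0.10 to 1.19, Mki67 and Top2a in Cxcr6- Cd4 T cells from −0.58 to 0.25 and −0.041 to 0.34, Mki67 and Stmn1 in plasmacytoid DCs from −0.27 to 0.62 and −0.46 to 0.56, and Mki67 and Top2a in endothelial cells from −0.81 to 0.24 and −1.13 to 0.076. No paired analysis was possible because Control mice carry the numbers 1 to 4 and BG mice 5 to 8. The alternatives for Foxp3+ T cells were not run, since too few mice had 10 cells.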
